A study of Arabidopsis thaliana with 16 samples.

Results

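The root response of wild-type Arabidopsis thaliana to 6 h of hypoxia was taken from 8 of the 16 arrays of the series, which are all arrays whose titles give the wild type. They form 2 groups of 4 arrays, wild type hypoxia and wild type normoxia. Both groups are of the Columbia ecotype, are labelled as the control for the knockdown, and consist of total RNA from roots of 14-d-old seedlings. The hypoxia seedlings spent 1 h on wet filter paper in the dark and then 6 h, also in the dark, on a floating platform with their roots in a sucrose-containing solution gassed with 3% oxygen in nitrogen. The normoxia samples are labelled as 6 h of normoxia, and the series' design text calls such plants untreated. The labels describe the filter paper, the platform and the dark only for the hypoxia treatment, so low oxygen and this handling cannot be told apart where the normoxia seedlings did not share it. The other 8 arrays come from a line in which RNA interference targets the ethylene response factor gene HRE1 (its titles and descriptions give different line numbers), and they enter here through the shared estimate of the spread and 1 comparison of responses. Arrays of a group are called biological replicates, and p-values measure the spread between them.

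When oxygen runs short, plant cells lose most of their respiratory ATP and turn to glycolysis and fermentation. In Arabidopsis, group VII ethylene response factors are degraded through an oxygen-dependent N-degron pathway in air and become stable in hypoxia, when they switch on a set of core hypoxia genes present in many cell types. At the same time, energy-costly work such as growth, cell division, ion uptake and much of secondary metabolism is usually cut back. Root RNA mixes all cell types of the organ, so fewer cells of a type and less RNA per cell cannot be told apart in any result below.

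Each array gave 1 intensity for each of 22746 probe sets, besides 64 manufacturer's controls. A change is the log2 difference, hypoxia minus normoxia, between group means of log2(intensity + 16). It is given with its standard error, and the pseudocount of 16 understates the changes of dim probe sets. Calls required an adjusted p below 0.05. In hypoxia 1637 probe sets were called higher and 2403 lower, which is 7.20% and 10.6% of those tested (17.8% together), and the median change of all probe sets was -0.06. By gene, 879 of 13355 named genes were called higher (6.58%) and 1219 lower (9.13%). These shares are the background for the counts of called genes in the lists and families below. The rises were the larger ones. A change of at least 2 log2 was reached by 245 called probe sets that were higher and by 140 that were lower, and one of at least 4 log2 by 28 and 3. Of the calls, 40.5% were higher on the deposited scale and 53.9% (2054 higher, 1755 lower) after each array was centred on its median, since the median intensity was 168.9 to 178.1 on hypoxia arrays and 179.9 to 193.6 on normoxia arrays. The 25S ribosomal RNA control read 13.75 to 14.18 on the log2 scale on hypoxia arrays and 9.21 to 12.06 on normoxia arrays. Its groups did not overlap (two-sided exact permutation p = 0.029, the smallest that 4 against 4 arrays allow, adjusted p = 0.0857 over 6 array measures), and its part in the results below was not tested. The number of arrays limits the precision. Of the 4040 called probe sets, 1931 were paired with no gene or with several and are not named here, among them the largest rise of all, of 6.70 ± 0.19. The groups did not overlap in 22.1% of all probe sets.

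**Figure D1:**
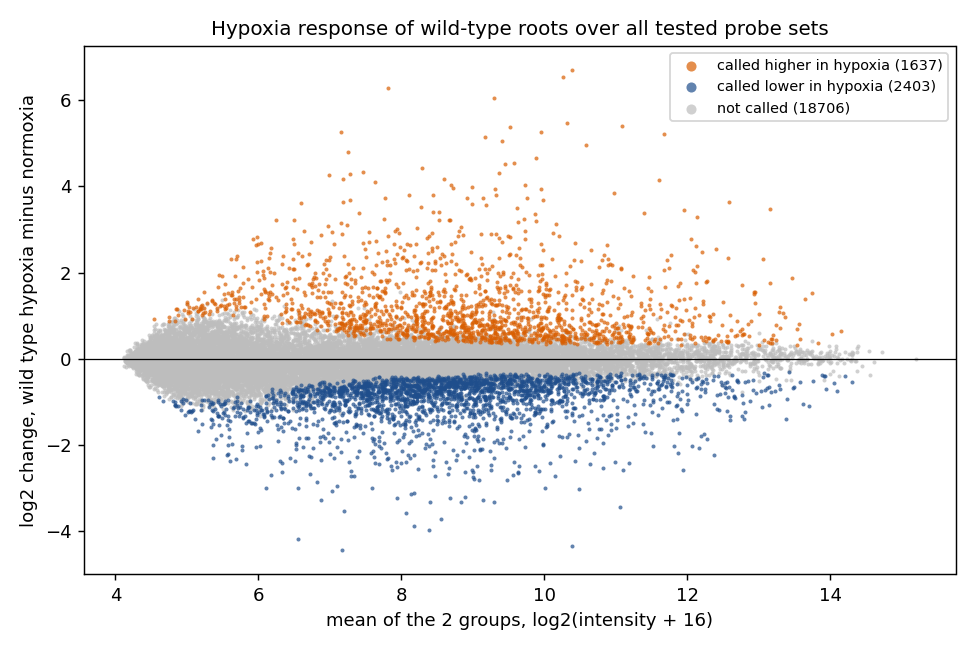
Log2 change between wild type hypoxia and normoxia (vertical axis) against the mean of both groups on the log2(intensity + 16) scale (horizontal axis), 1 point per probe set, with calls in colour. The 1637 probe sets called higher reach 6.70 log2, and the 2403 called lower reach -4.44 log2.

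The measured regulators of the hypoxia response rose strongly and without overlap. Of 19 listed genes of oxygen sensing and its regulation, 3 were paired with a probe set, and all 3 were called higher. HRA1 (AT3G10040) encodes a trihelix transcription factor that holds back the group VII factor RAP2.12. Its intensity was 2841, 2063, 3064 and 2556 on hypoxia arrays 1 to 4, against 213, 240.2, 243 and 172 on normoxia arrays 1 to 4. Every hypoxia array read several times the highest normoxia array, a change of 3.50 ± 0.17 (adjusted p = 1.3e-12). HRU1 (AT3G03270), a universal stress protein linked to hydrogen peroxide formation under hypoxia, read 13622, 12526, 16606 and 13537 in hypoxia, against 1312, 1480.2, 1392 and 1475 in normoxia. It was thus bright in air already and among the brightest signals in hypoxia, with a change of 3.29 ± 0.16. CML38 (AT1G76650), a calmodulin-like protein of cytosolic granules that form in hypoxic cells, read 6782, 4681, 7882 and 5226 in hypoxia, against 146, 155, 116 and 152 in normoxia. The hypoxia arrays of CML38 spread more widely than the normoxia arrays but lay far above them (5.26 ± 0.23, adjusted p = 4.7e-13).

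Most other core hypoxia genes, many of unknown function, rose as well. Of 24 measured members of this list 21 were called higher, 1 lower and 2 neither way, with a median change of 2.06 beside -0.05 over all genes. AT5G10040, a short protein of unknown function, had the largest rise of any named gene. It read 11027, 10170.4, 13098 and 11255 in hypoxia, against 49.8, 177, 104 and 135 in normoxia, a change of 6.53 ± 0.51 (adjusted p = 1e-07). The normoxia values of AT5G10040 differed several-fold among themselves, while the hypoxia arrays were close together. Its large standard error rests on the spread in both lines together and was also 0.51 for the HRE1-RNAi response. How much of it came from the wild-type normoxia arrays was not tested. Rises of similar size were also those of AT3G29970 (5.37 ± 0.34), AT4G24110 (5.14 ± 0.24) and the rhodanese-like gene AT2G17850 (4.96 ± 0.26). Of the wound-responsive protein family, AT4G33560 rose by 5.05 ± 0.31 and AT4G10270 by 4.14 ± 0.25. AT4G10270 read 12329, 12428, 13822 and 13078 in hypoxia, against 481, 862, 899 and 708 in normoxia. AT5G66985 reached a similar height, with means of 13075 ± 929 in hypoxia and 1194 ± 137 in normoxia (SD, n = 4 each). As further examples, chosen after their values were seen, smaller rises were found for AT5G44730, a haloacid dehalogenase-like hydrolase (3.36 ± 0.15), the kelch-repeat gene AT3G27220 (3.13 ± 0.14), and 2 FLZ zinc finger genes, AT4G17670 (1.97 ± 0.16) and AT5G47060 (1.42 ± 0.17). FHL, known for its part in the nuclear import of phytochrome A, rose by 1.48 ± 0.21. The list's smallest called rise was that of AT1G19530 (0.69 ± 0.12), whose mean intensity was 15002 ± 705 in hypoxia and already 9319 ± 766 in normoxia (SD, n = 4 each). AT3G10020 (0.16 ± 0.14, adjusted p = 0.52) and the dim AT5G45960 (0.27 ± 0.37, adjusted p = 0.72) were not called. AT5G04120 was the member called lower (-2.21 ± 0.29). The pairing of AT3G10020 and AT5G04120 with their probe sets rests on the probe table and could not be checked.

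Both measured genes of fermentation, of 17 listed, rose, while 1 of 14 measured genes of glycolysis was called. PDC2 (AT5G54960) encodes pyruvate decarboxylase, the first enzyme of ethanol fermentation. It read 4280.0, 4579.5, 4463 and 3149 in hypoxia, against 986, 975, 889 and 708 in normoxia, and every hypoxia array was above every normoxia array (2.19 ± 0.24, adjusted p = 9.7e-07). The lactate dehydrogenase gene AT4G17260 read 3616, 3402, 3557 and 3409.6 in hypoxia, against 506, 525, 601 and 481 in normoxia. Its 4 hypoxia arrays were nearly equal, and the change was 2.69 ± 0.12. Of 4 measured genes of sucrose and starch breakdown, 1 rose and 1 fell. AT2G31390, a cytosolic fructokinase that feeds hexose into glycolysis, read 12021, 13009, 13652 and 14735 in hypoxia, against 4414, 4924, 4903 and 4095 in normoxia (1.54 ± 0.16). The vacuolar invertase gene AT1G62660 went the other way, with 2018, 2658, 2323 and 2099.7 in hypoxia, against 6214, 6373, 5911 and 5450.2 in normoxia (-1.40 ± 0.12). Neither of these genes showed overlap between the groups. The alpha-amylase gene AMY1 was not called (0.96 ± 0.37, adjusted p = 0.079) but passed the threshold without hypoxia array 2 (1.22) or normoxia array 1 (1.16) and with quantile normalization (1.07). The plastid fructokinase gene AT1G66430 was not called (-0.32 ± 0.17, adjusted p = 0.23).

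Of 47 listed glycolysis genes only 14 were measured. Of these 1 was called, higher, beside 6.58% of all genes, and the median change was -0.02, or 0.07 with centred arrays. The called gene was GAPC2 (AT1G13440), a cytosolic glyceraldehyde 3-phosphate dehydrogenase gene. It read 19907, 20890.5, 21794 and 18569 in hypoxia, against 13693, 13382, 12885 and 14349.7 in normoxia, so that it was among the brightest probe sets in both groups and its change was small (0.58 ± 0.11, adjusted p = 0.0006). TPI, encoding triosephosphate isomerase, averaged 9989 ± 1435 in hypoxia and 9145 ± 1031 in normoxia (SD, n = 4 each) and was not called (0.12 ± 0.16, adjusted p = 0.7). The enolase gene ENOC was at -0.56 ± 0.20 (adjusted p = 0.051) and passed the threshold under 9 alternatives, at adjusted p = 0.013 to 0.049. Among them were the wild-type arrays alone (adjusted p = 0.039), array weights (0.015), and leaving out hypoxia array 4 (0.047) or normoxia array 4 (0.013). Of 13 measured genes of the tricarboxylic acid cycle, of 28 listed, 2 were called higher, with a median change of 0.003. They encode a subunit of pyruvate dehydrogenase (MAB1, 0.51 ± 0.15) and the E2 subunit of oxoglutarate dehydrogenase (AT4G26910, 0.50 ± 0.14). MAB1 was no longer called without hypoxia arrays 2 or 3 or normoxia arrays 3 or 4 in turn (adjusted p = 0.052 to 0.067) and with plain moderation (0.059), and AT4G26910 without hypoxia array 1 (adjusted p = 0.053). The succinate dehydrogenase genes SDH1-1 (0.14 ± 0.17) and SDH2-1 (0.003 ± 0.17) were not called. Of 7 genes of alternative respiration 1 rose, the oxidative stress marker AT2G21640 (1.05 ± 0.29).

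Among genes that move or respond to sugars, few were called, and these changed in both directions. SWEET transporters pass sugars along their gradient across membranes. Of 16 measured, 1 was called higher and 4 lower, beside 6.58% and 9.13% of all genes. The median change of the 16 was -0.08, with 8 above and 8 below 0. SWEET2, which in Arabidopsis roots holds sugar back in the vacuole, read 647, 622, 912 and 731 in hypoxia, against 230.3, 163, 244 and 275 in normoxia (1.61 ± 0.17). SWEET11, a sucrose efflux transporter known from phloem loading, read 913, 843, 851 and 922 in hypoxia, against 3687, 2848, 3148 and 3249 in normoxia (-1.85 ± 0.11). In neither gene did the groups overlap. SWEET3 changed by -2.31 ± 0.16. SWEET17, a vacuolar fructose carrier, changed by -0.69 ± 0.15 although its groups overlapped. SWEET16, also of the vacuole, changed by -0.55 ± 0.17, likewise with overlap. Its call was lost without hypoxia arrays 2 or 4 or normoxia arrays 1 or 3 in turn, with centred arrays and with plain moderation (adjusted p = 0.057 to 0.11). Among 6 measured genes that mark sugar starvation, 1 was called, a glutamine amidotransferase gene (AT1G15040) at 1.63 ± 0.20, and the median change of the list was 0.07. The genes of leucine breakdown on this list were MCCA (0.49 ± 0.20), MCCB (-0.15 ± 0.14) and IVD (0.29 ± 0.17), and none of them was called. Its other members AT3G15450 (-0.46 ± 0.20) and AT1G18270 (-0.23 ± 0.14) were not called either. MCCA was called higher without hypoxia array 2, with centred arrays and with array weights (adjusted p = 0.027 to 0.042). AT3G15450 was called lower under 5 alternatives, among them leaving out normoxia array 4 (adjusted p = 0.025) and array weights (0.035).

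**Figure D2:**
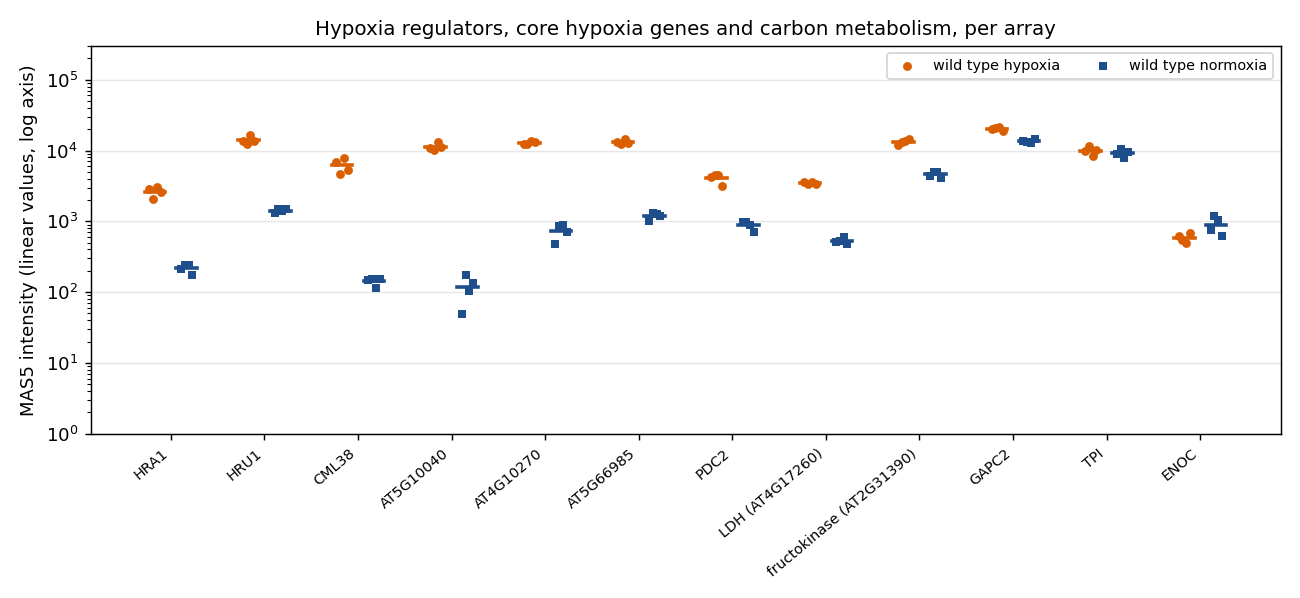
Intensity of 12 genes on each array (log axis), wild type hypoxia as circles and wild type normoxia as squares, with a bar at each group's mean. The regulators, core genes and fermentation genes stand well apart between the groups, while GAPC2, TPI and ENOC lie close together or overlap.

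Heat shock genes rose as a group. Heat shock proteins are chaperones that keep other proteins from aggregating, and the genes of the small ones are usually weakly active without stress. Of 11 measured members, of 41 listed, 9 were called higher, beside 6.58% of all genes. The median change of the list was 2.21. The small heat shock gene AT4G21870 read 817, 896, 959.5 and 759.6 in hypoxia, against 106, 95.4, 121 and 110.5 in normoxia. No hypoxia array came near the normoxia arrays (2.81 ± 0.18, adjusted p = 6.7e-11). Other small heat shock genes that rose were AT5G51440 (2.38 ± 0.16), AT2G29500 (2.35 ± 0.27), AT1G53540 (2.28 ± 0.45), AT1G54050 (2.27 ± 0.33), ATHSP22.0 (2.21 ± 0.34) and AT5G37670 (1.67 ± 0.24). AT5G48570, the co-chaperone FKBP65, rose by 1.60 ± 0.36. Hsp70-2 rose by 0.73 ± 0.23, a call that was lost without hypoxia arrays 1, 2 or 4 or normoxia arrays 1 or 2 in turn (adjusted p = 0.065 to 0.095) and with plain moderation (0.067). AT3G09440, a bright cytosolic HSP70, averaged 1912 ± 477 in hypoxia and 1783 ± 336 in normoxia (SD, n = 4 each) and was not called. Of 4 genes of reactive oxygen scavenging limma called 0, also at an unadjusted p below 0.05, and their median change was 0.12. They were ATMDAR2 (0.24 ± 0.16), which recycles ascorbate, the glutathione reductase genes GR1 (0.14 ± 0.18) and GR (0.11 ± 0.19), and the ascorbate peroxidase gene SAPX (0.08 ± 0.14).

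Genes of the early response to wounding, touch and microbial elicitors formed another rising group. Of 15 measured members 11 were called higher, beside 6.58% of all genes, and the median change of the list was 0.96. PUB22 (AT3G52450), a U-box ubiquitin ligase that dampens immune signalling, read 1727, 1814, 2021 and 1244 in hypoxia, against 283, 278, 251 and 128 in normoxia. Its groups were far apart (2.81 ± 0.21, adjusted p = 1.1e-09), and its close relative PUB23 rose by 1.63 ± 0.14. The zinc finger repressor STZ, also named ZAT10, read 1333, 762, 936 and 999 in hypoxia, against 162, 88.2, 117 and 239.6 in normoxia (2.66 ± 0.26). The groups of STZ did not overlap. Of 7 WRKY transcription factors 3 were called higher, WRKY22 (2.60 ± 0.22), WRKY53 (0.99 ± 0.27) and WRKY6 (0.66 ± 0.16). WRKY53 missed the threshold without normoxia array 4 (0.825, adjusted p = 0.052). The armadillo-repeat gene AT3G02840 rose by 2.07 ± 0.39 and AT1G19380 by 1.499 ± 0.17. The family of U-box ligases had PUB19 as its 1 call lower among 9 measured (-0.88 ± 0.28). That call was lost without hypoxia array 2 or normoxia arrays 1 or 2 in turn and with the wild-type arrays alone (adjusted p = 0.056 to 0.13).

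Of 23 measured members of the calcium signalling list 9 were called higher, 1 lower and 13 neither way. Of all genes 6.58% were called higher and 9.13% lower. The median change of the list was 0.60. The 1 call lower, of the EF-hand gene AT2G46600 (-0.50 ± 0.17), was lost without hypoxia arrays 2, 3 or 4 or normoxia arrays 1, 3 or 4 in turn, with centred arrays, with quantile normalization and with plain moderation (adjusted p = 0.05 to 0.12). After CML38 the next largest change was that of its chromosomal neighbour AT1G76640, which encodes the calmodulin-like protein CML39. It read 158, 207, 230.5 and 186 in hypoxia, against 44.0, 7.80, 50.5 and 32.9 in normoxia. All hypoxia arrays were above all normoxia arrays (2.18 ± 0.36), though at a far lower intensity than CML38. AT5G39670 (1.44 ± 0.33), AT3G01830 (1.36 ± 0.37), CML42 (1.33 ± 0.15), AT3G10300 (1.22 ± 0.18) and AT4G27280 (1.19 ± 0.25) are further genes of calcium-binding proteins that rose.

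The 30 largest rises also held genes of cell surface signalling, protein turnover and defence that are on none of these lists. AT5G48430, an aspartyl protease family gene, read 5171, 6223, 3905 and 5071 in hypoxia, against 78.0, 65.2, 62.2 and 40.3 in normoxia. This was the next largest rise of a named gene after AT5G10040 (6.05 ± 0.19, adjusted p = 1.9e-15). AT2G47560 encodes a RING finger protein of the ATL type (4.34 ± 0.43), and AT2G43140 a basic helix-loop-helix factor (4.17 ± 0.33). Both had normoxia arrays below the pseudocount, so the size of these changes depends on it. With a pseudocount of 1 they were 5.44 and 5.35, and with 64 they were 3.11 and 2.94. Leucine-rich repeat receptor kinases were AT5G59680 (3.80 ± 0.23) and AT1G05700 (3.52 ± 0.19). The class III peroxidases AT3G03670 (4.27 ± 0.35) and AT5G39580 (3.94 ± 0.20) rose, while another, AT1G34510, fell (-3.13 ± 0.26). The normoxia mean of AT3G03670 was below the pseudocount, and its change was 5.45 with a pseudocount of 1 and 2.94 with 64. Of the 30 largest rises, 3 were genes of the cysteine and histidine-rich C1 domain family, AT2G44370 (4.03 ± 0.23), AT5G43520 (3.69 ± 0.19) and AT2G42060 (3.56 ± 0.18). These are grouped by their family names, not by a test.

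**Figure D3:**
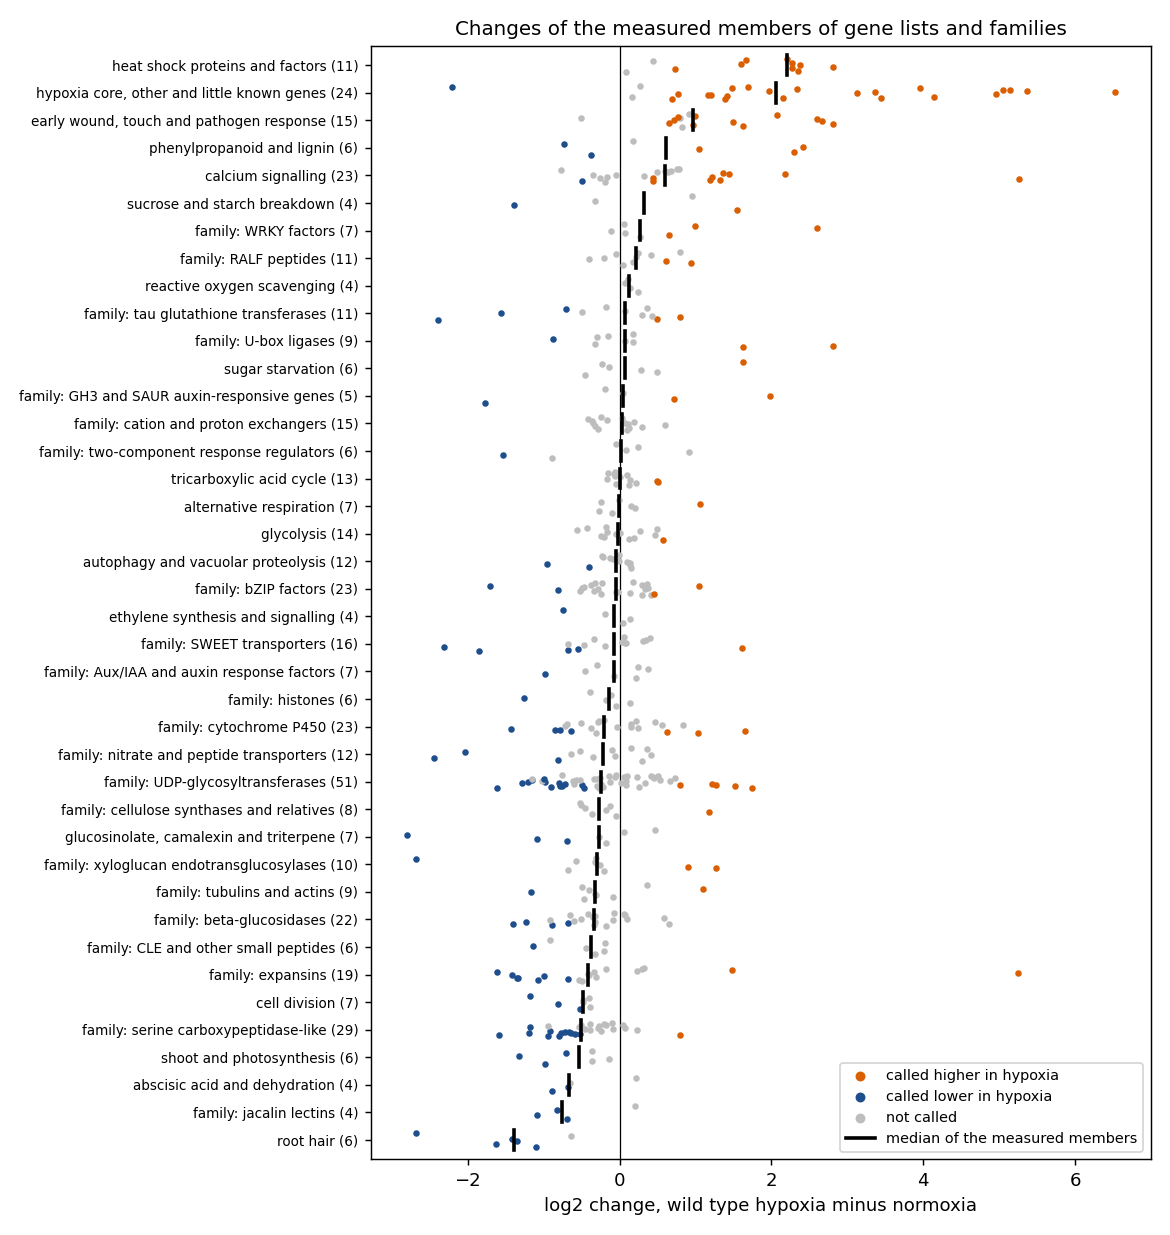
Log2 change between wild type hypoxia and normoxia of each measured member (points) of the gene lists and families with at least 4 measured members, with the number measured in brackets and the median as a bar. The medians of the heat shock genes (2.21) and the other core hypoxia genes (2.06) are the highest, although 1 core gene lies at -2.21, and all 6 root hair genes lie below 0 with a median of -1.39.

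The measured genes of hormone metabolism and response changed in both directions. For the counts of called genes here, the shares over all genes were 6.58% higher and 9.13% lower. Of 4 ethylene genes 1 was called, RTE1, a regulator of the receptor ETR1, at -0.74 ± 0.14, while EIN3, the main transcription factor of the pathway, was not (0.14 ± 0.13, adjusted p = 0.54). RTH, a relative of RTE1 (-0.19 ± 0.15), and AT1G12010, of the ACC oxidase family (0.04 ± 0.14), were not called. The GH3 family holds acyl acid amido synthetases, several of which attach amino acids to auxin. GH3.3 read 160.1, 208, 190.4 and 251 in hypoxia, against 52.5, 45.0, 25.2 and 36.2 in normoxia (1.98 ± 0.33), and WES1 rose by 0.71 ± 0.19. GH3.17 read 733, 932, 593 and 765 in hypoxia, against 2572, 2407, 2776 and 2574 in normoxia (-1.77 ± 0.15). The groups did not overlap in either gene, so members of 1 family changed in opposite directions. GH3.1 (0.04 ± 0.40) and GH3.9 (-0.19 ± 0.35) were dim and not called. AT1G23160, also a GH3 family gene, was among the 30 largest falls (-3.29 ± 0.29). The type A response regulator RR16, a cytokinin-responsive gene, changed by -1.54 ± 0.35 from an already low level. The other 5 measured response regulators were not called and ranged from -0.89 ± 0.34 for ARR15 through -0.04 ± 0.25 for RR22, 0.08 ± 0.33 for RR18 and 0.24 ± 0.36 for RR23 to 0.92 ± 0.41 for RR19, all of them dim. ARR15 was called lower with a pseudocount of 64 and with array weights (adjusted p = 0.026 to 0.048), and RR19 higher without hypoxia array 1 (0.022). Of 7 Aux/IAA and auxin response factor genes 1 was called, IAA31 (-0.98 ± 0.29). This call was lost without hypoxia arrays 2 or 4 or normoxia array 3 in turn (adjusted p = 0.055 to 0.073). The gibberellin receptor gene GID1A rose by 0.57 ± 0.14. In the abscisic acid and dehydration list 2 of 4 fell, the dehydrin gene COR47 (-0.89 ± 0.14) and AT3G53990, of the universal stress protein family (-0.69 ± 0.16). The cold-regulated genes COR15A (0.21 ± 0.31) and COR15B (-0.65 ± 0.33) were dim and not called. Of the signalling peptides, 2 of 11 RALF genes rose, RALFL33 (0.93 ± 0.13) and RALFL31 (0.61 ± 0.15), and of 6 CLE genes CLE26 fell (-1.14 ± 0.28). CLE41 (-0.32 ± 0.20), CLE44 (-0.20 ± 0.23), CLE27 (-0.44 ± 0.22), CLE21 (-0.19 ± 0.43) and CLE40 (-0.92 ± 0.37) were below 0 as well and were not called, except CLE40 without normoxia array 4 (adjusted p = 0.017) or with array weights (0.035).

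Root hair genes had the lowest median change of the lists and families with at least 4 measured members. Root hairs are tip-growing outgrowths of epidermal cells, and their walls are built with a set of expansins, extensins and wall enzymes largely specific to them. Of 6 measured genes, of 32 listed, 5 were called lower, with a median change of -1.39. XTH26, a xyloglucan-modifying enzyme, read 8.10, 60.5, 5.40 and 39.7 in hypoxia, against 279, 262, 189 and 208 in normoxia. It was thus close to the pseudocount on 2 of the hypoxia arrays, and its change of -2.69 ± 0.32 depends on that setting (adjusted p = 1.5e-06). EXPA7, a root hair expansin, read 117, 197, 144 and 202 in hypoxia, against 559, 459.8, 443 and 389.8 in normoxia (-1.42 ± 0.24), and EXPA18, its partner in root hairs, changed by -1.35 ± 0.22. The pectin methylesterase-type gene AT5G04960 changed by -1.63 ± 0.22 and the peroxidase gene AT1G30870 by -1.097 ± 0.29. The extensin gene AT3G54580 was not called (-0.64 ± 0.27, adjusted p = 0.13), but was with the 8 wild-type arrays alone (adjusted p = 0.033) and with array weights (0.042). Summed over the 6 root hair genes, the intensity was 1311 to 2104 on hypoxia arrays and 3627 to 5288 on normoxia arrays.

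Other wall genes changed in both directions. Of 19 expansins 2 were called higher and 7 lower, beside 6.58% and 9.13% of all genes, with a median change of -0.41. EXPA15 (-1.34 ± 0.22), EXLA1 (-1.07 ± 0.16) and EXLA2 (-1.62 ± 0.34) fell beside the root hair expansins. The hypoxia signal of EXLA2 was near the pseudocount, and its change was -2.555 with a pseudocount of 1 and -0.852 with 64. AT4G30380, an expansin-like B gene, rose instead, with 839.7, 512, 1665 and 592 in hypoxia, against 3.30, 12.9, 5.50 and 2.20 in normoxia. Its normoxia signal was below the pseudocount on all arrays, so the change of 5.25 ± 0.33 depends on that setting. The rise of EXLA3 (1.48 ± 0.44) was lost without hypoxia arrays 1 or 3 or normoxia arrays 2 or 4 in turn (adjusted p = 0.052 to 0.1). Among 10 xyloglucan endotransglucosylase genes XTH18 (1.27 ± 0.30) and XTH20 (0.90 ± 0.23) rose while XTH26 fell. CSLA03, of the mannan synthase group, was the 1 called gene of 8 cellulose synthases and relatives (1.17 ± 0.20). TUA1, an alpha-tubulin, rose by 1.102 ± 0.14, and TUB1, a beta-tubulin, changed by -1.17 ± 0.22.

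All 7 measured cell division genes, of 47 listed, had values below 0 and 3 were called lower. Their median change was -0.48, or -0.39 with centred arrays. KINESIN-12B (AT3G23670), a motor of the phragmoplast that builds the new cell plate, read 29.9, 50.8, 3.20 and 34.7 in hypoxia, against 78.1, 75.1, 88.1 and 72.3 in normoxia. The groups did not overlap, though all values were low (-1.18 ± 0.31, adjusted p = 0.0084). The Aurora kinase gene AUR2 changed by -0.81 ± 0.17. AUR1 changed by -0.52 ± 0.15, with overlapping groups, and was not called without hypoxia array 4 or normoxia arrays 2 or 3 in turn (adjusted p = 0.055 to 0.086) or with centred arrays (-0.431, adjusted p = 0.059). PRL, a subunit of the replicative helicase, was not called (-0.39 ± 0.17). HIS1-3, a drought-responsive linker histone, was the 1 called gene of 6 histones (-1.26 ± 0.18). The H2B genes HTB1 (-0.17 ± 0.15), HTB2 (-0.12 ± 0.14), HTB4 (-0.05 ± 0.14) and HTB11 (0.14 ± 0.14) and the centromeric histone gene HTR12 (-0.39 ± 0.23) were not.

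Transporters of the nitrate and peptide family (NPF) stood among the 30 largest falls. Of 12 measured members with a family symbol 3 were called lower, beside 9.13% of all genes. The median change of these 12 was -0.22, and 4 of them lay above 0. Their lowest change was -2.44, so the larger falls below are of genes outside the 12. Proteins of this family carry nitrate, peptides, hormones and glucosinolates. AT1G72140 read 119, 163, 124 and 71.1 in hypoxia, against 1199, 1306, 1478 and 909 in normoxia (-3.22 ± 0.18, adjusted p = 1.2e-11). No hypoxia array came near the normoxia arrays. AT2G40460 changed by -2.94 ± 0.31, AT2G26690 (NPF6.2) by -2.44 ± 0.17 and AT3G21670 by -2.04 ± 0.38. The hypoxia signal of AT3G21670 was near the pseudocount, and its change was -3.23 with a pseudocount of 1 and -1.08 with 64. GTR1, a glucosinolate transporter, changed by -0.81 ± 0.22 although its groups overlapped. The 3 neighbouring NPF genes, AT3G45680 (-3.003 ± 0.34), AT3G45700 (-2.67 ± 0.31) and AT3G45710 (-2.49 ± 0.18), fell as well. AT3G45710 was the brightest of them and read 399.8, 487, 279 and 354 in hypoxia, against 1829.9, 2073, 2747 and 2117 in normoxia. AT3G45690, which lies between them, was dim in both groups, with means of 44.8 ± 10.5 in hypoxia and 26.4 ± 20.5 in normoxia (SD, n = 4 each), and was not called.

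Of 7 measured genes of the glucosinolate, camalexin and triterpene list 3 were called lower (AT5G47980, JAL33 and JAL34) and 4 neither way, with a median change of -0.28. The other genes here are grouped by family, without a test of the groups. AT1G14960, a major latex protein-like member of the Bet v 1 family, had the largest fall of a named gene. It read 291, 362, 280.1 and 203 in hypoxia, against 5637, 6583, 5778 and 5752 in normoxia, a change of -4.33 ± 0.21 (adjusted p = 1.3e-12). Every normoxia array was many times brighter than any hypoxia array. Another gene of this family, AT1G70880, changed by -2.70 ± 0.18. AT5G38020, a SABATH-type methyltransferase gene, read 509, 425, 588 and 433 in hypoxia, against 4108, 3779.9, 4950.5 and 3417 in normoxia (-3.01 ± 0.14). The BAHD acyltransferase genes AT5G47980 (-2.81 ± 0.29) and AT5G47950 (-2.59 ± 0.23) lie in the gene cluster for the root triterpene thalianol. AT5G47980 read 228, 175, 170.1 and 179 in hypoxia, against 1279.7, 1882, 1299 and 1233 in normoxia. AT2G25150, the spermidine coumaroyl transferase gene, changed by -3.005 ± 0.30 from a low normoxia level. The dirigent genes AT4G11210 (-3.71 ± 0.27) and AT4G11190 (-3.20 ± 0.23) and the strictosidine synthase-like genes AT3G57020 (-2.995 ± 0.28) and AT3G57010 (-2.82 ± 0.24) are neighbouring pairs of related genes that fell alike. Of 4 jacalin lectin genes 3 fell, all of them bright. The jacalin lectin JAL33, a partner of the ER body glucosidase PYK10, read 9260.5, 7396, 10559 and 9489 in hypoxia, against 19364, 20437, 21336 and 16542 in normoxia (-1.08 ± 0.13). JAL34 (-0.70 ± 0.12) and JAL22 (-0.83 ± 0.13) fell too, and the dim JAL23 was not called (0.20 ± 0.43). PYK10 itself averaged 21068 ± 3009.9 in hypoxia and 23652 ± 2079 in normoxia (SD, n = 4 each) and was not called (-0.17 ± 0.14, adjusted p = 0.49), nor was UGT74B1, which glucosylates glucosinolate precursors (-0.28 ± 0.15).

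**Figure D4:**
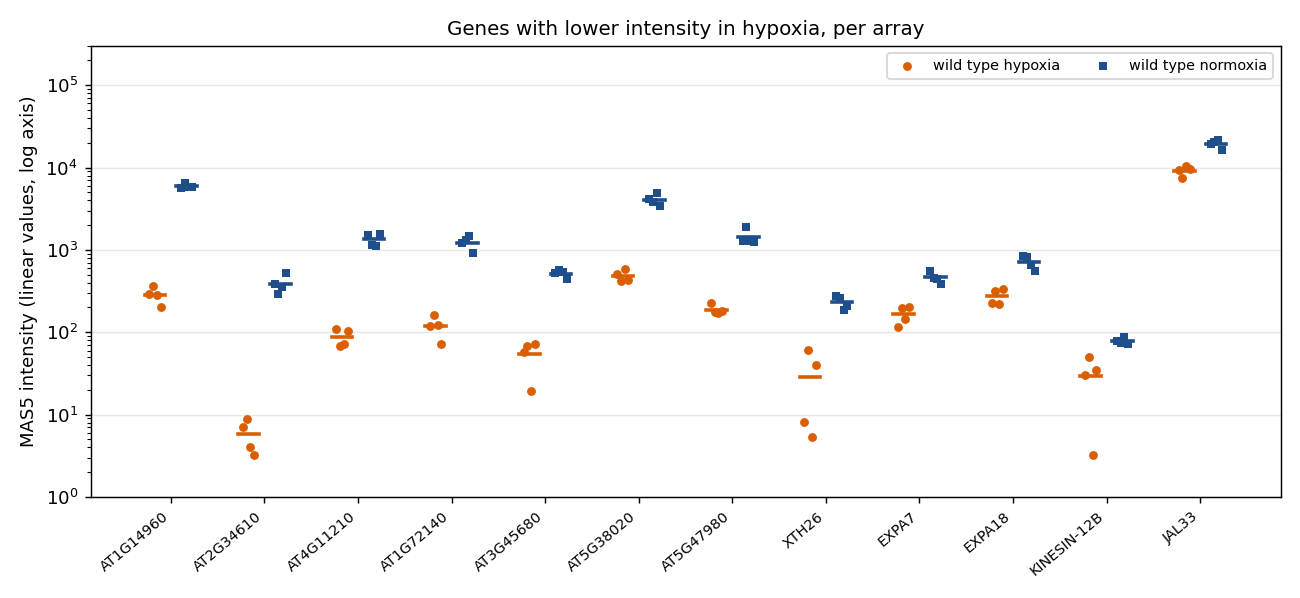
Intensity of 12 genes that were called lower on each array (log axis), wild type hypoxia as circles and wild type normoxia as squares, with a bar at each group's mean. In each of these genes all 4 hypoxia arrays lie below all 4 normoxia arrays.

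Of 6 measured phenylpropanoid genes 3 were called higher and 2 lower, and without any 1 array the number called lower was 1 or 0. CCOAMT (AT1G67980), a caffeoyl-CoA methyltransferase gene, read 696, 338, 858 and 359.5 in hypoxia, against 92.8, 99.9, 49.2 and 107 in normoxia (2.42 ± 0.36). AT3G13610, encoding the feruloyl-CoA hydroxylase that makes the coumarin scopoletin, read 7372, 7629, 8137 and 6376 in hypoxia, against 1513, 1788, 1291 and 1403 in normoxia (2.29 ± 0.14). In both genes the groups were separate. CCR2, a cinnamoyl-CoA reductase induced by pathogens, rose by 1.05 ± 0.17. The calls lower were those of HCT, a hydroxycinnamoyl transferase of lignin synthesis (-0.38 ± 0.13), and AT1G55290, a relative of AT3G13610 (-0.73 ± 0.24). The call of HCT was lost without each of the 8 arrays in turn (adjusted p = 0.052 to 0.11) and that of AT1G55290 without hypoxia arrays 2, 3 or 4 or normoxia arrays 1, 2 or 3 in turn (0.082 to 0.15). With centred arrays both were lost (adjusted p = 0.16 and 0.078), as they were with plain moderation (0.082 and 0.059), and AT1G55290 also with quantile normalization (0.066). AT3G12900, which is near the pseudocount in both groups, was not called (0.17 ± 0.33). The 2 flavonoid genes measured, DFR (0.75 ± 0.43) and UGT78D2 (0.01 ± 0.21), were not called, although DFR was without normoxia array 1 (adjusted p = 0.036). Outside this list, the glucosyltransferase gene UGT72E2, which acts on monolignols, read 790.5, 1084, 748 and 926 in hypoxia, against 3095, 2969, 2573 and 2355 in normoxia (-1.62 ± 0.19), and UGT72E3 changed by -1.29 ± 0.23.

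The large enzyme families of secondary metabolism and detoxification had more calls lower than higher, as had all genes (6.58% higher, 9.13% lower). In the cytochrome P450 and glutathione transferase genes these were close in number. With centred arrays more probe sets were called higher (2054) than lower (1755). The centred median changes were -0.16 for UDP-glycosyltransferases, -0.42 for serine carboxypeptidase-like genes and -0.25 for beta-glucosidases. Of 51 UDP-glycosyltransferase genes 5 were called higher and 13 lower, with a median change of -0.25. UGT76B1, which glucosylates defence-linked small acids, rose by 1.74 ± 0.15, UGT87A2 by 1.52 ± 0.14, UGT73B4 by 1.27 ± 0.20 and UGT73B5 by 1.21 ± 0.13. Of 29 serine carboxypeptidase-like genes 1 was called higher and 12 lower, with a median change of -0.51. SCPL45 rose by 0.79 ± 0.12, and scpl29 (-1.59 ± 0.15), SCPL27 (-1.20 ± 0.23), SCPL43 (-1.18 ± 0.34), SCPL49 (-0.94 ± 0.18), scpl40 (-0.91 ± 0.24) and scpl48 (-0.80 ± 0.13) fell. SCPL43 lost its call without hypoxia array 2 or normoxia array 3 and with a pseudocount of 1 (adjusted p = 0.053 to 0.079). Of 22 beta-glucosidase genes 4 were called lower, BGLU16 (-1.40 ± 0.23), BGLU44 (-1.23 ± 0.15), BGLU15 (-0.89 ± 0.20) and BGLU42 (-0.68 ± 0.16). Of 11 tau-class glutathione transferases 2 were called higher and 3 lower. GSTU26 read 867, 957, 835 and 807 in hypoxia, against 4611, 5118, 4884 and 3972 in normoxia (-2.40 ± 0.16), with no overlap. GSTU28 (-1.56 ± 0.25) and GSTU18 (-0.70 ± 0.24) fell too, and GSTU22 (0.79 ± 0.18) and GSTU27 (0.49 ± 0.12) rose. GSTU18 lost its call under 12 alternatives (adjusted p = 0.051 to 0.15), among them leaving out hypoxia arrays 2, 3 or 4 or normoxia arrays 1, 3 or 4 in turn. Of 23 cytochrome P450 genes 3 were called higher and 4 lower, and the neighbouring genes CYP71B29 (1.65 ± 0.22) and CYP71B28 (-1.44 ± 0.19) changed in opposite directions. CYP71B6 rose (1.04 ± 0.12), and CYP71B34 (-0.85 ± 0.19), CYP71B26 (-0.79 ± 0.20) and CYP84A4 (-0.64 ± 0.20) fell. CYP84A4 lost its call without hypoxia arrays 1 or 2 or normoxia arrays 2, 3 or 4 in turn and with centred arrays (adjusted p = 0.052 to 0.11). CYP718, which that family list did not hold, was among the 30 largest falls and changed by -2.61 ± 0.27.

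Of 6 measured photosynthesis genes, which mark green tissue, 3 were called lower and 3 neither way, with a median change of -0.53. LHCB4.1, an antenna protein of photosystem II, read 787, 838, 760.3 and 698 in hypoxia, against 1539, 1721, 1577 and 1328 in normoxia (-0.98 ± 0.13), and LHCB4.2 changed by -1.33 ± 0.21. PSAN, of photosystem I, changed by -0.71 ± 0.20, a call lost without hypoxia array 4 or normoxia arrays 2 or 4 in turn (adjusted p = 0.05 to 0.073). RCA, Rubisco activase (-0.14 ± 0.17), PRK, phosphoribulokinase (-0.36 ± 0.31), and AT2G26500 (-0.36 ± 0.18) were not called. Summed over the 6 photosynthesis genes, the intensity was 1835 to 2052 on hypoxia arrays and 3145 to 3501 on normoxia arrays, so green-tissue transcripts were present in both groups. Whether these belong to root plastids or to shoot tissue was not tested. Of the markers of root tissues, the cortex-linked gene AT1G09750 averaged 488 ± 115 in hypoxia and 416 ± 91.6 in normoxia (SD, n = 4 each) and was not called. AT1G61590, the 1 measured gene of the endodermis and stele list, was at 0.46 ± 0.16 (adjusted p = 0.054). It passed the threshold under 8 alternatives, among them centred arrays (adjusted p = 0.012), the wild-type arrays alone (0.023) and leaving out normoxia array 4 (0.035). The clock gene GI was not called either (-0.12 ± 0.15, adjusted p = 0.7). In all 7 of 36 listed cell type markers were paired with a probe set, so the check of the root label rests on 3 root hair genes and 2 cortex-linked genes, of which XTH26 was below the pseudocount on 2 hypoxia arrays. The other cortex-linked gene, AT1G62500, averaged 419.5 ± 53.1 in hypoxia and 214 ± 62.8 in normoxia (SD, n = 4 each), and its call (0.96 ± 0.28) was lost without hypoxia array 2 or normoxia array 4 (adjusted p = 0.05 to 0.071). Of 12 genes of autophagy and vacuolar proteolysis 2 were called lower, or 1 without hypoxia arrays 2, 3 or 4 or normoxia arrays 2, 3 or 4 in turn. They were the vacuolar processing enzyme gene GAMMA-VPE (-0.95 ± 0.15) and the autophagy gene ATG8F (-0.41 ± 0.13), whose call was the one lost, also with centred arrays and plain moderation (adjusted p = 0.051 to 0.1 in all).

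Some of the changed genes lie side by side. Groups were formed of genes called with at least a 2-fold change in 1 direction and separated by no more than 2 protein-coding genes. Of the groups of at least 3 such genes, 8 rose and 3 fell. The rule was chosen, like the genes named from it, after the data were seen. At this fold 3.58% of all probe sets were called higher and 3.61% lower. These shares count single probe sets and give no rate of such groups, and how many groups chance would give was not tested. The berberine bridge enzyme-like oxidase genes AT1G26380 to AT1G26420 were all 5 measured, and 4 rose. AT1G26380, which acts in the making of an indolic defence compound, read 907, 517, 817 and 398 in hypoxia, against 61.2, 41.6, 63.4 and 45.5 in normoxia (3.23 ± 0.36). AT1G26420 (3.62 ± 0.34), AT1G26410 (2.79 ± 0.33) and AT1G26390 (1.67 ± 0.38) rose with it, and the dim AT1G26400 was not called (0.60 ± 0.36). The normoxia means of AT1G26420 and AT1G26410 were below the pseudocount, so the size of their changes depends on it. With a pseudocount of 1 they were 5.24 and 4.35, and with 64 they were 2.28 and 1.53. In another group of the same enzyme family 4 genes fell. AT5G44390 (-1.02 ± 0.19), AT5G44400 (-1.20 ± 0.24), AT5G44410 (-1.26 ± 0.20) and AT5G44440 (-1.25 ± 0.35) were lower, the last of them no longer called without hypoxia array 3 or normoxia array 4 (adjusted p = 0.057 to 0.06). The defensin gene PDF1.2, of another family, lies between them and was not called (0.19 ± 0.33). Neighbouring aspartyl protease genes rose, AT3G51330 by 1.80 ± 0.14, AT3G51350 by 2.94 ± 0.16 and AT3G51360 by 1.29 ± 0.40. The call of AT3G51360 was lost without hypoxia arrays 1 or 3 or normoxia arrays 1 or 2 in turn (adjusted p = 0.068 to 0.085) and with plain moderation (0.051). The C1 domain gene AT2G44370 rose beside AT2G44380 (1.61 ± 0.21), and the receptor kinase genes AT1G51830 (1.79 ± 0.32) and AT1G51850 (1.54 ± 0.30) rose together. Among the falls, AT5G38020 lies near the related methyltransferase gene AT5G37990 (-1.52 ± 0.17). Related neighbours can share sequence, and how far their probe sets also bind each other's transcripts was not tested.

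**Figure D5:**
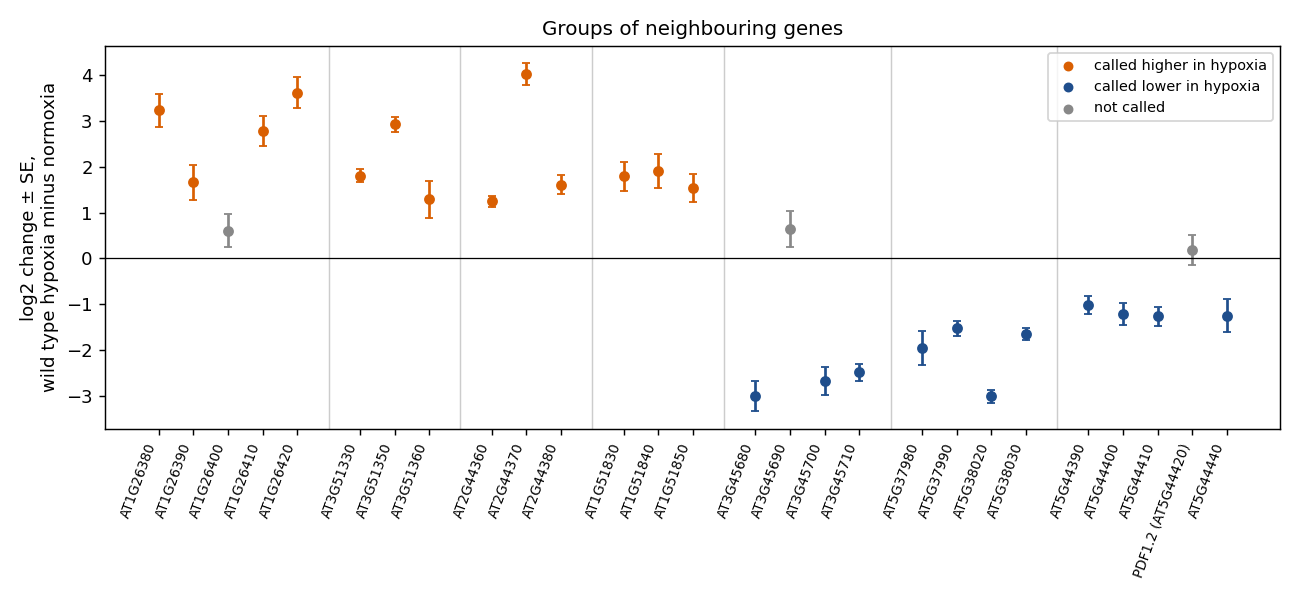
Log2 change with its standard error, wild type hypoxia minus normoxia, for the measured genes of 7 groups of neighbouring genes, separated by vertical lines. Groups with calls above 0 reach 4.03 log2, and groups with calls below 0 reach -3.01 log2.

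The response of wild-type roots was set against that of HRE1-RNAi roots, hypoxia minus normoxia within each line. Of 22746 probe sets 4 were called in the difference of the responses (0.0176%), and 770 had an unadjusted p below 0.05. Chance alone would put about 1 in 20 probe sets below that p, which is more than 770. The named one was the lectin-like gene AT3G16530. In wild type it read 2205, 2041, 2603 and 1486 in hypoxia, against 518, 423, 405 and 409 in normoxia, a change of 2.19 ± 0.16. In HRE1-RNAi the change was 3.58 ± 0.16, and the difference of wild type minus HRE1-RNAi was -1.40 ± 0.23 (adjusted p = 0.022). That call was lost without wild type hypoxia array 2 or wild type normoxia arrays 1, 2, 3 or 4 in turn, with adjusted p up to 0.077. Without these arrays the number of calls was 2, 2, 2, 1 and 2. The other 3 probe sets have no named gene, and the difference was negative for each of them (-1.27 to -1.09).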

How the data were processed

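Root RNA of the 8 wild-type and 8 HRE1-RNAi samples was measured on 16 one-colour Affymetrix arrays. The deposited values are a linear intensity per probe set and array, made with MAS5 per the submitters' processing notes, with no version given and no genome build given in the sources used here. A mean trimmed of 2% at each end was 499.8 on every array, so the authors' values were already scaled. The group of each array was read from its title.

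The 64 control probe sets were left out. The probe table pairs 13513 of the others with 1 gene, 503 with several and 8730 with none, and a RefSeq gene table gave current symbols and gene order. Gene roles are background knowledge. Group means of log2(intensity + 16) were fitted over all 16 arrays with limma 3.58.1 in R 4.3.3 (trend and robust moderation, 12 residual degrees of freedom). Two-sided p-values were corrected after Benjamini and Hochberg over 22746 probe sets, with calls below 0.05, and the fit was tested on simulated data for the wild-type comparison with 200 changed of 22746 probe sets. It recovered 7.4%, 60.6% and 90.9% of changes of 0.5, 1 and 2 log2, with 2 false calls. The simulation held independent noise and far fewer changes than the 4040 calls in the data, so these rates need not hold there. Genes with several probe sets were represented by the brightest. Array measures were compared by exact permutation (70 arrangements).

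The lists and the comparison were chosen with earlier results of these data known. Many listed genes were not paired with a probe set. Not examined for this reason were the lists of jasmonate, trehalose 6-phosphate, root nutrient uptake, and aquaporins. The same holds for plasma membrane pumps and channels, and for root meristem and cap. Named by rule are genes among the 30 largest rises and falls with 1 gene and groups that do not overlap, up to 6 called and 3 bright uncalled members per list, all members of lists of at most 6, cell type markers and calls in the difference of responses. Chosen after their values were seen were AT5G04120, ENOC, SDH1-1, SDH2-1, AT5G37670, AT5G48570, Hsp70-2, AT4G27280, AT2G46600, EXLA1, SCPL45, AT3G45690, PDF1.2 and those marked so in the text. Alternatives were pseudocounts of 1 and 64, quantile normalization, median centring, leaving out the dimmest 40% of probe sets, fixed and random replicate blocks, only the wild-type arrays, leaving out both HRE1-RNAi arrays numbered 4, plain moderation, array weights, stricter thresholds, and leaving out each wild-type array.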

Additional observations from a re-analysis of the deposited data

Results flagged for a closer look

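Each gene named in the text and 6 array measures were examined within each group of 4 arrays for 1 array whose distance from the others, as a share of the group's range, was beyond Dixon's 95% critical value. Of 492 groups so examined 29 had such an array, and chance alone gives about 1 in 20. Standing apart in hypoxia were AT5G44730 (3244 on array 3, others 2889 to 2931), AT1G66430 (157 on array 4, others 248 to 259), AT5G59680 (999.9 on array 4, others 1288 to 1348), AT5G44410 (60.6 on array 2, others 81.8 to 85.6), PUB19 (24.6 on array 2, others 76.7 to 86.2), CLE40 (15.4 on array 2, others 0.80 to 2.40), RR22 (6.40 on array 3, others 2.1 to 2.4), HTB11 (2181 on array 4, others 1811 to 1857) and BGLU15 (363 on array 4, others 732 to 821).

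In normoxia, array 1 stood apart for AT1G66430 (262, others 291 to 294), AT2G47560 (88.1, others 5.50 to 10.5), AT5G47950 (1245, others 1179 to 1189), UGT76B1 (916, others 833 to 846), AT3G16530 (518, others 405 to 423), DFR (65.1, others 4.30 to 7.20) and PDF1.2 (21.6, others 67.2 to 71.6), and for the poly-A controls (6.52 on the log2 scale, others 7.56 to 7.77). Array 2 stood apart for AT3G45700 (1102, others 891 to 914), AT1G14960 (6583, others 5637 to 5778) and AT5G47980 (1882, others 1233 to 1299). Array 3 did so for TUB1 (1032, others 1369 to 1405), scpl40 (158, others 232 to 240.1), EXO (484, others 549.6 to 557) and NAI1 (2035, others 1731 to 1738), and array 4 for PUB22 (128, others 251 to 283), MCCB (991, others 1115 to 1132), AT3G53990 (7273, others 4929 to 5229), AT3G03670 (30.9, others 6.70 to 9.10) and BGLU16 (716, others 1612 to 1758).

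The response of AT3G16530 differed between the lines, at -1.40 log2 for wild type minus HRE1-RNAi (adjusted p = 0.022).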

How the results depend on the processing

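The 21 alternatives gave 1356 to 2135 probe sets higher and 1755 to 3149 lower, apart from the stricter thresholds. At least a 2-fold change left 814 higher and 820 lower, and an adjusted p below 0.01 left 1496 lower. Leaving out 1 wild-type array at a time gave 1356 to 1580 higher and 1936 to 2269 lower, and 1 to 5 calls in the difference of responses. That difference gave 7 calls with array weights and 1 at an adjusted p below 0.01. Without the 2 HRE1-RNAi arrays numbered 4, 2008 were higher and 2935 lower. For the named genes, 0 of 4516 pairs of gene and alternative changed direction and 4377 kept their side of the threshold, while 103 lost and 36 gained a call. The median of the sucrose and starch list (0.32) was -0.32 without the dimmest 40% of probe sets, a filter that left 3 of its genes. Same-numbered hypoxia and normoxia arrays correlated by 0.0133 to 0.142 in their deviations from the group means. Hypoxia arrays 2, 3 and 4 were each closest to the normoxia array of the same number (0.0724, 0.121 and 0.142). Hypoxia array 1 was closest to normoxia array 3 (0.046). The correlations are small, and the main fit did not pair the arrays. Whether same-numbered arrays belong together was not tested. The replicate block gave 1779 higher, 2598 lower and 5 calls in the difference. For single genes the fixed and the random block added the calls of ENOC (adjusted p = 0.031 and 0.042) and AT1G61590 (0.027 and 0.044), and the fixed block alone added that of AT3G15450 (0.008) and ended that of GSTU18 (0.055). Intensities carry no read depth. Probe sets near the pseudocount of 16 have the least certain changes, and below 16 lay 13.5% to 15.7% of probe sets on hypoxia arrays and 13.1% to 15.8% on normoxia arrays.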

Other observations

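Some genes outside the lists and outside the 30 largest changes were singled out after their values were seen, and stand here as values. ASPGB1, an asparaginase gene of nitrogen recycling, read 2255, 1316, 2786 and 1568 in hypoxia, against 317, 231, 318 and 365 in normoxia (2.58 ± 0.23, adjusted p = 1.9e-08). TIL, a temperature-induced lipocalin of the plasma membrane, was brighter in both groups, with means of 9228 ± 603 in hypoxia and 2617 ± 78.6 in normoxia (SD, n = 4 each), and rose by 1.81 ± 0.11. EXO, a brassinosteroid-responsive gene linked to carbon limitation, rose by 1.58 ± 0.16, and GRX480, a glutaredoxin gene of salicylic acid and jasmonate signalling, by 1.22 ± 0.22.

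Falls outside the lists touched organelle and cytoskeletal genes. FDH, the mitochondrial formate dehydrogenase gene, read 547, 645, 604 and 584 in hypoxia, against 1740.4, 1931, 1656 and 1855 in normoxia (-1.57 ± 0.15). NAI1, the transcription factor behind ER bodies, where PYK10 resides, changed by -1.44 ± 0.15 although PYK10 was not called. SP1L4, a SPIRAL1-like microtubule protein gene, changed by -1.74 ± 0.27. Each of these 7 genes had groups that did not overlap, as had 22.1% of all probe sets.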
